A study of Mus musculus with 15 samples.

Results

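Peaks of open chromatin that were less accessible in mouse embryonic fibroblasts (MEFs) with Fra2 activation, both early and late after infection, were examined here. They were chosen by the measured values themselves: the summed counts of each group, divided by the summed library totals and scaled to 1e6 counts (CPM), had to be at most 0.667 of the matched control at both times, in peaks with at least 2 CPM in the early and in the late control. The rule found 2093 peaks, called members here, out of 206367 consensus peaks, of which 145238 reached the control level at both times. At that level 10196 peaks met the ratio early and 5741 met it late. The reciprocal rule (a ratio of at least 1.5 at both times, with at least 2 CPM in both Fra2 groups) found 11971 gained peaks. The Fra2 to control ratios of the members are therefore a description of the choice, not a test of Fra2.

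Fra2, encoded by Fosl2, is a subunit of AP-1, a dimeric transcription factor of Fos and Jun family proteins that binds a short palindromic DNA motif and helps to open enhancers. Fibroblasts carry high AP-1 activity, and different Fos and Jun subunits compete for partners and for sites. Ezh2 is the methyltransferase of Polycomb repressive complex 2, which places the repressive mark H3K27me3 on developmental genes. A fall in ATAC-seq signal at a peak can reflect fewer cells with the site open or fewer insertions per open site, and the bulk libraries cannot tell these apart.

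MEFs are connective tissue cells grown from mouse embryos, here of a C57/B16 background per the labels. In 12 libraries the cells carried a CRISPR activation construct (VPR, with an mCherry reporter), had received lentiviral guides to Fosl2 or scrambled guides, and were sorted for mCherry and THY1; they form early control, early Fra2, late control and late Fra2, with 3 libraries each. The time labels disagree (days 3 and 10 in most sample labels, days 4 and 11 in the series text, day 4 for early control 3), so the times are called early and late. The fifth group, 3 libraries, came from MEFs treated with 4 µM of the Ezh2 inhibitor GSK343 for 3 days and then left for a washout day, with nothing in the labels on transduction or sorting of these cells. Separate cultures are not stated for the replicates, so p-values measure nothing beyond the spread among these libraries, and that spread may be technical.

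Reads in peaks ranged from 6.75 to 25.3 M (M, 1e6 reads) per library, with early control 3 the shallowest. Of 36 peaks assigned to Fosl2, 9 were called higher with early and 8 with late Fra2 guides, 2 were called lower late, and 0 were members. No share of all tested peaks called higher with Fra2 was computed, so these counts only describe the locus. Gene-end peaks of 10 fibroblast markers had median control levels of 2.7 to 19.5 CPM, against 2.5 to 3.39 for 4 epithelial, 2.86 to 6.63 for 3 endothelial, 8.35 to 9.7 for 2 macrophage, 4.02 to 17.6 for 2 neuronal and 3.27 to 14 for 2 skeletal muscle markers. Pecam1, Ptprc, Adgre1, Rbfox3, Stmn2 and Myog had no gene-end peak. None of these gene-end peaks was a member, and the part of other cell types in any result was not tested.

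Promoter sequence was at hand for 114 members, which overlapped a RefSeq promoter window (250 bases before to 50 after an annotated start, GRCm38.p6). The 250 bases before the start are printed for 6 of them, 5′ to 3′ on the gene's strand, with capitals for every match to the 8 motifs described further on. The first 4 are the promoter members with the highest control accessibility: Txn2, a mitochondrial thioredoxin (chr15:77928995-77929244, minus strand), Traf2, an adaptor of TNF receptors (chr2:25546941-25547190, minus strand), Arap1, a GTPase-activating protein (chr7:101394138-101394387, plus strand), and Hexdc, a hexosaminidase (chr11:121204183-121204432, plus strand), whose peak also covers the end of Ogfod3. The other 2, chosen after their values were seen, are those called lower in both comparisons with the most negative weaker fold change: Aspg, an asparaginase (chr12:112106433-112106682, plus strand), and Islr, a leucine-rich repeat protein of mesenchymal cells (chr9:58158555-58158804, minus strand).
Txn2: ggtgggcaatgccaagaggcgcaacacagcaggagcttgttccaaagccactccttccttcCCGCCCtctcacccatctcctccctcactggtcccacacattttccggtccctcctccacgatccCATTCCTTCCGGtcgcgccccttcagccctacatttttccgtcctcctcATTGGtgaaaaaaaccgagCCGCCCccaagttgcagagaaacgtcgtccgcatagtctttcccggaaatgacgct
Traf2: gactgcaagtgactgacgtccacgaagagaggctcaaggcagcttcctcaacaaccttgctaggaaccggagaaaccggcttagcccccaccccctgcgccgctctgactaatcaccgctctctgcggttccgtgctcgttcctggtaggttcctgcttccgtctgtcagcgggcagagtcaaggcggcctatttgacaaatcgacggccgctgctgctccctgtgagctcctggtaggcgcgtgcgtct
Arap1: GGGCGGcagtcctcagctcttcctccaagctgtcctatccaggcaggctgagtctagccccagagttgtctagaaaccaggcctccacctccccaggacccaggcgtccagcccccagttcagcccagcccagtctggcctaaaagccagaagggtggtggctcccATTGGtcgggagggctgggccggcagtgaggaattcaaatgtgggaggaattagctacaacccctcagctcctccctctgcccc
Hexdc: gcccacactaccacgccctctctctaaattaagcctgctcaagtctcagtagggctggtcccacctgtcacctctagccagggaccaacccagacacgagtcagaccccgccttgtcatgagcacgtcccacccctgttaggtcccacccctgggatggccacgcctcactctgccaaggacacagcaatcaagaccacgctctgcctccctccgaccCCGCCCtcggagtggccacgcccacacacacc
Aspg: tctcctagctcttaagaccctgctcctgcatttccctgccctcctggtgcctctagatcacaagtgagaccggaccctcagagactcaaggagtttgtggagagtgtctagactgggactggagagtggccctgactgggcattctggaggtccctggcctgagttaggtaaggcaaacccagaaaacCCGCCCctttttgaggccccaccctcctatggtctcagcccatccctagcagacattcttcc
Islr: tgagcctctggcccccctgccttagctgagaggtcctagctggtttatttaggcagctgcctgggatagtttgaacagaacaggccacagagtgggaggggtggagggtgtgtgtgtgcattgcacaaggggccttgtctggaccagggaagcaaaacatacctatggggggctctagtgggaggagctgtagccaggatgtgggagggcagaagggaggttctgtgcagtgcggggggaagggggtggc
In these 250 bases the capitals mark Sp/KLF letters (GGGCGG or CCGCCC) in Txn2, Arap1, Hexdc and Aspg and NF-Y letters (CCAAT or ATTGG) in Txn2 and Arap1. Txn2 alone of the 6 also has TEAD (CATTCC) and ETS (CTTCCGG) letters, which share 1 base. None of the 6 stretches holds the AP-1 letters TGANTCA, and Traf2 and Islr hold none of the 8 motifs there.

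Levels are CPM after TMM scaling, a correction for composition, in libraries 1 to 3 of each group. The Arap1 promoter peak (chromosome 7, 101394043 to 101394544) stood at 40.5, 38.3 and 30.7 CPM in early controls and at 27.4, 24.1 and 21 CPM with early Fra2. In late cells it stood at 26.4, 32.9 and 28 CPM in controls and at 13.9, 13.1 and 15.1 CPM with Fra2. The groups did not overlap at either time, and the log2 fold changes (± SE) were −0.60 ± 0.15 early and −1.05 ± 0.16 late. The Traf2 peak stood at 42.4, 38.4 and 29.4 CPM against 25.4, 26.7 and 22 CPM early, and at 32.7, 45.5 and 41 CPM against 26.5, 25.3 and 25 CPM late. Its groups did not overlap either, with early control 3 the lowest of its group. The Txn2 peak stood at 53.9, 43.4 and 25.2 CPM against 31.8, 34.4 and 23.2 CPM early, where early control 3 fell among the Fra2 libraries, and at 34, 48.5 and 46 CPM against 29.1, 24.8 and 26.7 CPM late, without overlap.

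The Aspg and Islr promoter peaks were chosen for their fold changes and the peaks above for their levels. Their larger falls from smaller signals therefore follow from the choice. The Aspg peak measured 8.96, 8.56 and 11.9 CPM in early controls against 3.85, 3.44 and 3.96 CPM with early Fra2. In late cells it measured 5.83, 11.5 and 10.1 CPM against 3.04, 2.67 and 4.05 CPM. The log2 fold changes were −1.35 ± 0.20 and −1.52 ± 0.19. The Islr peak measured 5.1, 4.57 and 5.74 CPM against 2.52, 2.48 and 2.45 CPM early, and 4.33, 3.74 and 4.81 CPM against 1.28, 1.97 and 2.03 CPM late, again without overlap.

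Over all 2093 members the signal was low to start with. The median group level was 3.34 CPM in early control and 1.86 CPM with early Fra2, and 2.92 CPM in late control and 1.69 CPM with late Fra2. The median ratio was 0.578 early (range 0.228 to 0.667) and 0.593 late (0.194 to 0.667), and 133 members were at or below 0.5 at both times. The Ezh2 inhibitor group stood at 2.99 CPM. Control means lay below 5 CPM in 82.5% of members, against 60% of control-level peaks. Members held 0.846 to 1.02% of the reads in peaks in early controls and 0.768 to 0.823% in late controls. They held 0.471 to 0.561% with early Fra2, 0.439 to 0.487% with late Fra2 and 0.756 to 0.771% with the inhibitor, so that each Fra2 library lay below all 9 other libraries.

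**Figure D1:**
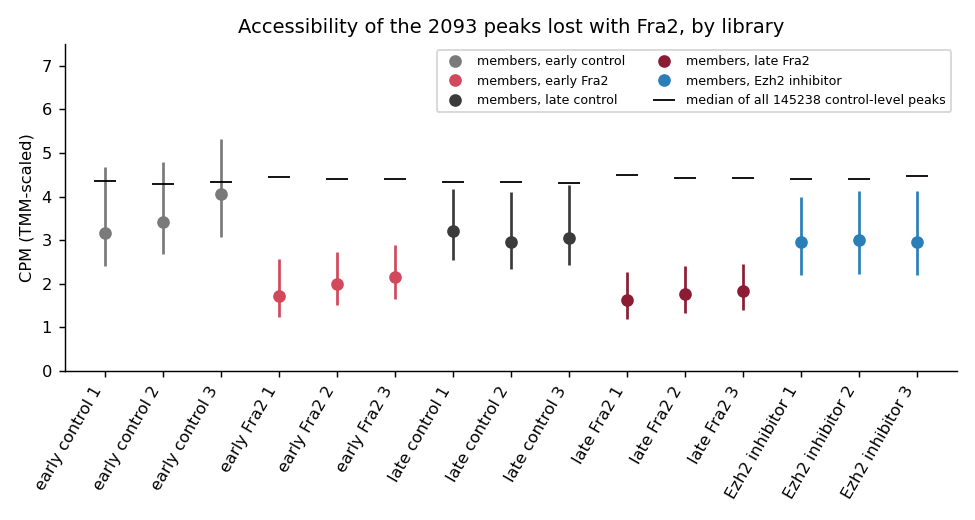
Median CPM (TMM-scaled; y axis) of the 2093 members in each of the 15 libraries (x axis), with vertical lines from the lower to the upper quartile over peaks and a black dash for the median of all control-level peaks. Fra2 libraries lie at 1.63 to 2.16 CPM and the other 9 at 2.95 to 4.06 CPM, while the dashes stay between 4.28 and 4.49 CPM; early control 3 is the highest.

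Early control 3 weighed on the early comparison. It was the highest of the 3 early controls at 1033 members (49.4%), against 31.5% of control-level peaks, and its member median of 4.06 CPM exceeded the 3.17 and 3.41 CPM of the other early controls. Without it the same rule gave 1717 peaks, of which 1582 are members; leaving out any of the other 11 control and Fra2 libraries gave 1732 to 2737. In the fit across all peaks, edgeR called 1276 members (61%) lower early, where 4.91% of the 206349 tested peaks were called lower, and 1174 (56.1%) lower late, against 3.54%. It called 877 members (41.9%) lower at both times, against 0.777% of tested peaks. That count was 494 without late Fra2 1, 536 without late Fra2 2, 501 without late control 3 and 559 without early Fra2 1. The rule used these contrasts, so nothing is read from the counts. All 3 Fra2 libraries lay below all 3 controls at 1393 members (66.6%) early, 1731 (82.7%) late and 1187 (56.7%) at both times, against 13.3%, 18.9% and 4.49% of control-level peaks.

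The authors' own peak calls, made library by library, covered fewer members with Fra2. A called peak overlapped 92.9% and 84.5% of members in early controls 1 and 2 but 40.5% in the shallow early control 3, and 68.6% to 89.7% in late controls. With Fra2 the overlap was 31.2% to 60.5% early and 46.8% to 64.7% late, although the same libraries called a peak at 81.5% to 97.8% of control-level peaks. Of the members, 619 (29.6%) had no call in any early Fra2 library and 439 (21%) none in any late Fra2 library, against 34 and 7 in early and late controls and 61 with the inhibitor. Among control-level peaks the shares without a call were 2.02% and 0.7% with early and late Fra2, 0.878% and 0.412% in early and late controls and 0.266% with the inhibitor. These calls rest on the same reads as the counts and move with depth, so they describe the members and do not test them.

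Members were next ranked by the weaker of their 2 fold changes, among those called lower and without overlap at both times. Peaks without a gene within 100 kb or with a predicted gene symbol were left out, with 1 peak kept per gene. One left out, on chromosome 14 (107033738 to 107034239), fitted −2.05 ± 0.31 early and −1.55 ± 0.33 late. The 10 ranked members with the most negative weaker fold change lay mostly in gene bodies, which the limit to peaks near genes can shape. The one in Ptprf, a receptor tyrosine phosphatase (chromosome 4, 118269902 to 118270403), measured 5.31, 4.71 and 5.18 CPM in early controls and 1.38, 1.44 and 1.95 CPM with early Fra2. Late cells measured 3.21, 3.38 and 4.57 CPM against 0.899, 1.12 and 1.04 CPM, and the log2 fold changes were −1.68 ± 0.26 and −1.87 ± 0.27. The inhibitor libraries, at 2.2, 2.77 and 2.99 CPM, fell between the Fra2 and the control libraries. The peak in Jarid2, an accessory subunit of Polycomb repressive complex 2 (chromosome 13, 44907461 to 44907962), measured 6.12, 6.46 and 5.6 CPM against 1.9, 1.76 and 2.31 CPM early. In late cells its controls were lower, at 3.59, 3.44 and 4.26 CPM, and its Fra2 libraries stood at 1.41, 1.55 and 1.66 CPM. The inhibitor left it at 5.36, 5.31 and 5.71 CPM, within or just under the range of early controls.

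The peak in Celf2, an RNA-binding splicing regulator (chromosome 2, 7056028 to 7056529), measured 9.5, 9.28 and 5.32 CPM against 2.99, 2.24 and 2.52 CPM early and 7.02, 5.97 and 7.43 CPM against 2.53, 2.99 and 2.46 CPM late. Its inhibitor libraries, at 7.08, 5.63 and 7.61 CPM, were within the range of the controls. A peak 80.8 kb from Cpe, which encodes carboxypeptidase E, measured 4.13, 4.79 and 3.22 CPM against 1.71, 1.44 and 1.15 CPM early, with log2 fold changes of −1.5 ± 0.27 early and −1.67 ± 0.27 late. The others lay in Uba2, a subunit of the SUMO-activating enzyme (−1.63 and −1.52), Ccdc93 (−1.83 and −1.44), Dop1b (−1.44 and −1.40) and Ncoa2, a nuclear receptor coactivator (−1.28 and −1.31), at the Aspg promoter, and 89.9 kb from Ube2e2 (−1.33 and −1.30). Apart from Aspg (9.81 CPM), their early control means were 2.26 to 8.03 CPM, and the floor of 3 counts lies at 0.117 to 0.42 CPM, for counting error alone.

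**Figure D2:**
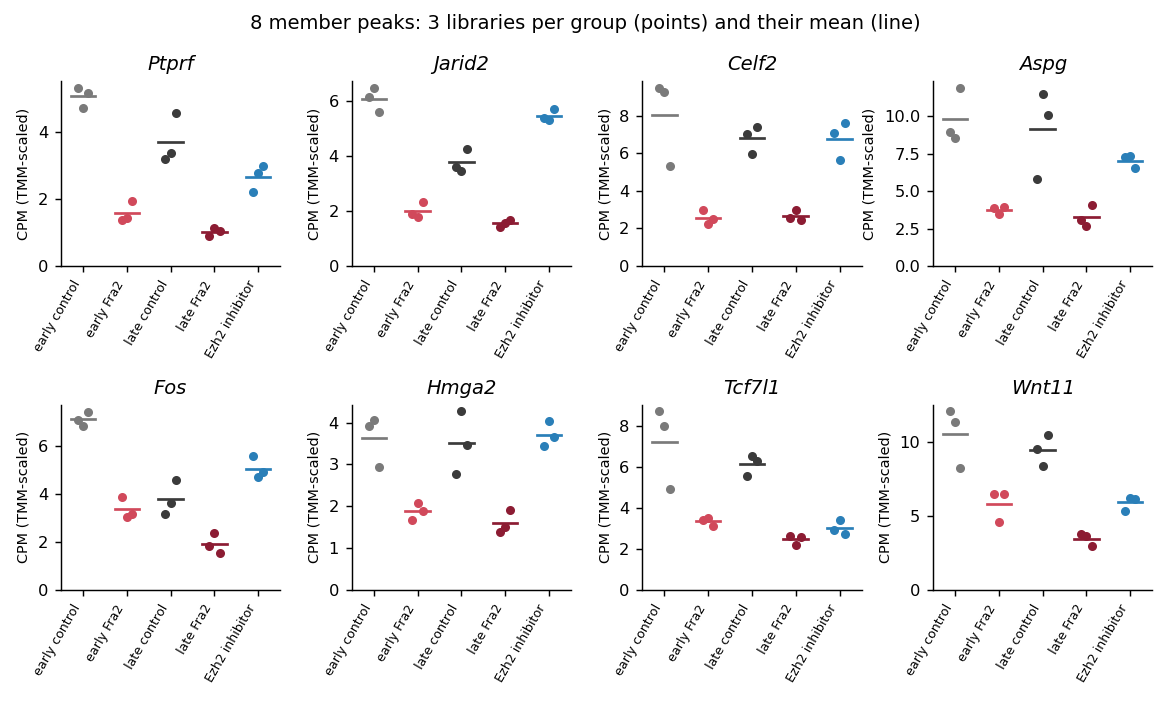
CPM (TMM-scaled; y axis, starting at 0) at 8 member peaks named by their nearest gene; points are the 3 libraries of each group (x axis) and the line is their mean. At each peak the Fra2 libraries lie below the control libraries of their time, while the inhibitor libraries are near control at Jarid2 and Hmga2 (means 5.46 and 3.71 CPM) and near early Fra2 at Tcf7l1 and Wnt11 (3.01 and 5.92 CPM).

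Under the same limits on gene names, 6 members had the highest control levels among those called lower without overlap at both times. They were the promoter peaks of Traf2, Arap1 and Ogfod3/Hexdc, peaks at the ends of U2af2, a splicing factor, and Mepce, which caps 7SK RNA, and a peak 22.3 kb from Ptma, which encodes prothymosin alpha. The U2af2 peak measured 27.2, 25.3 and 18.9 CPM against 18.2, 15.9 and 14.3 CPM early, and 20.6, 24.1 and 25.5 CPM against 14.6, 14.5 and 13.9 CPM late. The Mepce peak measured 23, 23.1 and 21.4 CPM against 15.2, 14.2 and 14.3 CPM early. Early log2 fold changes of the 6 were −0.63 to −0.56 and late ones −1.05 to −0.61. The share of control-level peaks that are members dropped from 2.58% at 2 to 3 CPM to 1.54% at 3 to 5, 0.784% at 5 to 10, 0.336% at 10 to 20 and 0.377% at 20 CPM or more, a description that counting noise at low levels can shape and whose part in it was not tested.

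Near the ratio limits the choice was a matter of the third decimal. Txn2, Jpt2 and Musk were the last members inside the early limit, at ratios of 0.667, and Lias, Tcte2 and Tbccd1 the first outside, also at 0.667. Their early log2 fold changes were −0.48, −0.60 and −0.63 inside and −0.56, −0.58 and −0.52 outside. At the late limit Cpne8, Hdac4 and Tent4a stood inside (−0.60, −0.65 and −0.62 late) and Chek2, Dtnb and Mcf2l outside (−0.62, −0.63 and −0.63). At a limit of 0.75 in place of 0.667 the rule gave 6756 peaks.

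Position was not used by the rule. Of the members, 1170 (55.9%) lay in gene bodies, 714 (34.1%) outside genes and 209 (9.99%) within 1 kb of an annotated gene end. Among all control-level peaks the shares were 46.9%, 36.1% and 17%, and among gained peaks 46.3%, 51.5% and 2.16%. Gene-end peaks have higher levels than others, and within a range of control level the shares were as follows. At 2 to 3 CPM 2.57% of gene-end peaks and 2.58% of other peaks were members, and at 3 to 5 CPM 1.04% and 1.6%. The shares were 0.661% and 0.817% at 5 to 10 CPM, 0.304% and 0.353% at 10 to 20 CPM, and 0.427% (11 members) and 0.311% (6 members) at 20 CPM or more. No test was made of these shares. Members outside genes lay a median of 14.6 kb from the nearest gene, against 15.7 kb for control-level peaks. By chromosome, members made up 1.89% of control-level peaks on chromosome 7, 1.85% on 17 and 1.81% on 11, down to 0.97% on 3 and 0.79% on X, around 1.44% for all.

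The letters of 8 motifs were searched on both strands of the promoter windows, counting identical windows once. AP-1 letters (TGANTCA) were found in 3 of 139 windows at members (2.16%), in 6.52% of 15061 windows at control-level peaks, in 8.46% of 7012 at control-level peaks under 10 CPM and in 7.79% of all 32544 windows. They were found in 30 of 120 windows at gained peaks (25%). The cAMP response element (TGACGTCA) was found in 3 windows at members (2.16%), 2.97% at control-level peaks, 2.38% at those under 10 CPM, 0 at gained peaks and 1.8% of all windows. A match to the longer letters does not contain a match to the AP-1 letters.

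TEAD letters (GGAATG) were in 21.6% of windows at members, 12.5% at control-level peaks, 14% at those under 10 CPM, 20.8% at gained peaks and 14.6% of all. Sp/KLF letters (GGGCGG) were in 48.2%, 63.2%, 52.3%, 5.83% and 35.9%, in the same order, and ETS letters (CCGGAAG) in 7.91%, 16.1%, 10.4%, 2.5% and 8.91%. NF-Y letters (CCAAT) were in 36%, 36.6%, 26.9%, 34.2% and 37.4%. RUNX letters (TGTGGTT) were in 2.88%, 3.62%, 4.12%, 10% and 5.29%, and homeodomain letters (TAATTA) in 2.88%, 2.2%, 3.08%, 7.5% and 5.29%. For Sp/KLF and ETS the members lay closer to control-level peaks under 10 CPM than to all control-level peaks, and for NF-Y farther from them. The median GC content was 58.7% at members, 61.3% at control-level peaks, 59% at those under 10 CPM and 46.7% at gained peaks. A match is a description of letters and not a bound site, and only 5.45% of members overlap a promoter window, so these shares say nothing of the others.

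**Figure D3:**
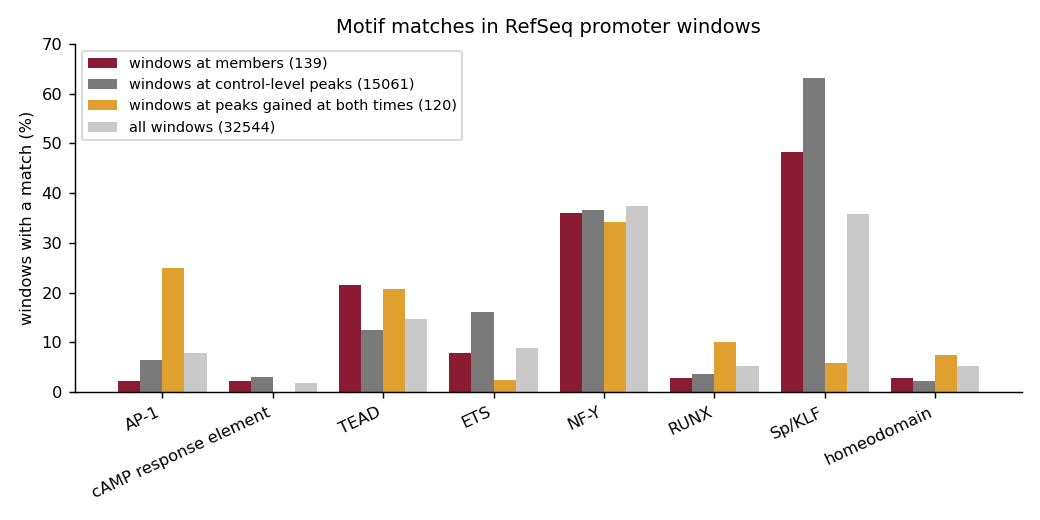
Share of RefSeq promoter windows (y axis, %) with a match to each of 8 motifs (x axis), in windows that overlap members, control-level peaks or peaks gained at both times and in all windows; the number of windows is in the legend. AP-1 letters are in 2.16% of windows at members and in 25% at gained peaks, and Sp/KLF letters in 48.2% and 5.83%.

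Members were scattered: 1856 of 2093 were the only member in their run of peaks (peaks with starts at most 5 kb apart), and 1590 genes were nearest to a member, 59 of them to 3 or more. Gse1, which encodes a chromatin-associated coiled-coil protein (chromosome 8, 120228501 to 120581383), had the most, with 23 members among 125 control-level peaks, all in the gene body. Their log2 fold changes ran from −1.11 to −0.58 early and from −1.31 to −0.61 late. Of the 23, 11 were called lower early, 11 late and 8 at both times, beside 61%, 56.1% and 41.9% of all members. The most accessible (120518602 to 120519103) fitted −0.76 ± 0.20 early and −1.0 ± 0.19 late, from late levels of 9.19 ± 2.89 CPM in controls and 4.59 ± 0.589 CPM with Fra2 (SD, n = 3). The 102 other control-level peaks of Gse1 were also mostly lower, 84 of them early (median −0.32) and 96 late (median −0.37). Over all non-member control-level peaks 57% were below 0 early and 59% late, with medians of −0.07 and −0.08.

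Per1, a circadian repressor gene (chromosome 11, 69095108 to 69109965), had 6 members among 20 control-level peaks, strung over 69103440 to 69109226. The one at 69105894 to 69106395 was the lowest early, at −1.42 ± 0.29, and fitted −0.98 ± 0.28 late. All 14 other control-level peaks of Per1 were below 0 early and 13 of them late. Slc3a2, the heavy chain of several amino acid transporters, had 5 members (−1.22 to −0.73 early and −0.82 to −0.65 late). All 5 were called lower early but only 1 late, where 61% and 56.1% of all members were. Of its 19 other peaks, 18 were below 0 early and 15 late. At Nav1, a microtubule-binding protein, 6 members lay among 51 control-level peaks. Of the other 45, 27 early and 28 late were below 0 (medians −0.08 and −0.10), near the 57% and 59% of all non-member control-level peaks. Sox5, with 5 members, had 14 of 34 others below 0 early and 13 late, so most of its other peaks did not share the sign of its members.

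Other peaks near members were shifted the same way by a small amount. Control-level peaks 1 to 2 kb from a member, themselves not members, had median log2 fold changes of −0.22 early and −0.24 late over 744 peaks. At 10 to 20 kb the medians were −0.15 and −0.16, and at 50 to 100 kb −0.11 and −0.12, against −0.07 and −0.08 over all 143145 non-member peaks at the control level. The share below 0 in late cells went from 77.2% at 1 to 2 kb to 64.2% at 50 to 100 kb, against 59% of all. Median levels were alike, at 4.35 to 4.56 CPM. With the inhibitor the medians ran from −0.10 to −0.04, against −0.02. The counts of a neighbour come from the same libraries as the rule, so this is a description.

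**Figure D4:**
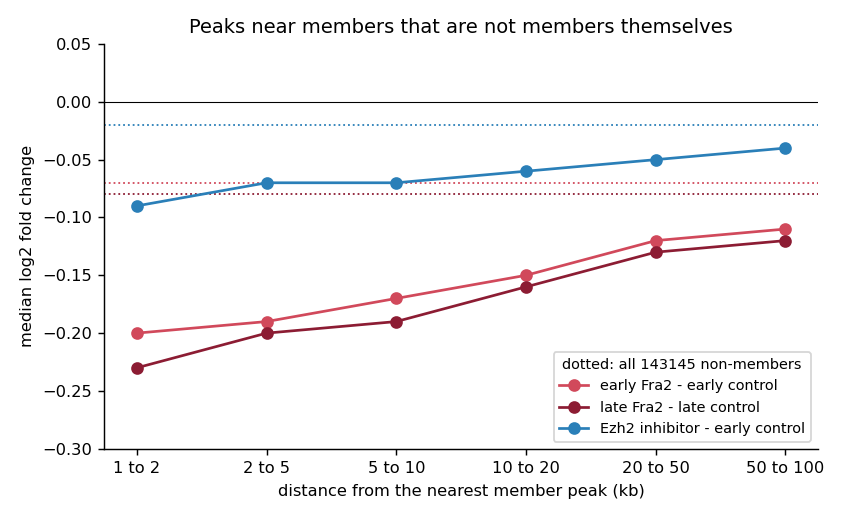
Median log2 fold change (y axis) of control-level peaks that are not members, by distance from the nearest member (x axis, kb), for 3 comparisons, leaving out the dense chromosome 1 stretch; dotted lines are the medians of all non-members. Early and late Fra2 medians go from −0.20 and −0.23 at 1 to 2 kb to −0.11 and −0.12 at 50 to 100 kb.

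2 runs of peaks stood apart in their read counts, and 1 of them held many members. On chromosome 1, 122 peaks were tiled over 88211945 to 88310372 (98.4 kb, 1.24 peaks per kb against a median of 0.8 in the 68 runs of 30 or more peaks), over Ugt1a1, Mroh2a, Hjurp and Trpm8. It held 23 members among 120 control-level peaks, with 9 assigned to Mroh2a and 8 to Hjurp. The stretch held 7244 to 12569 reads in every library, although depth differed 3.75-fold between libraries. Its CPM therefore ran from 339 to 1560, highest in early control 3 and lowest in early Fra2 1. Across the long runs reads followed depth, with a median Pearson correlation of 0.96 over the 15 libraries, while it was 0.112 here. The median log2 fold changes of its control-level peaks were −0.58 early, −0.57 late and −0.84 with the inhibitor. An unplaced scaffold behaved alike: its 82 peaks held 21455 to 32763 reads per library, with a correlation of 0.338. It held 1 member, which is among those called lower with the inhibitor (3.86, 7.83 and 14.7 CPM in early controls and 3.65, 4.36 and 2.37 CPM with the inhibitor; −1.22 ± 0.29). What sets these reads was not tested. The number of members (2070), their gene-end share, the counts called lower at both times and with the inhibitor, and the medians of the neighbours were also computed without the chromosome 1 stretch, and the other results include its 23 members.

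**Figure D5:**
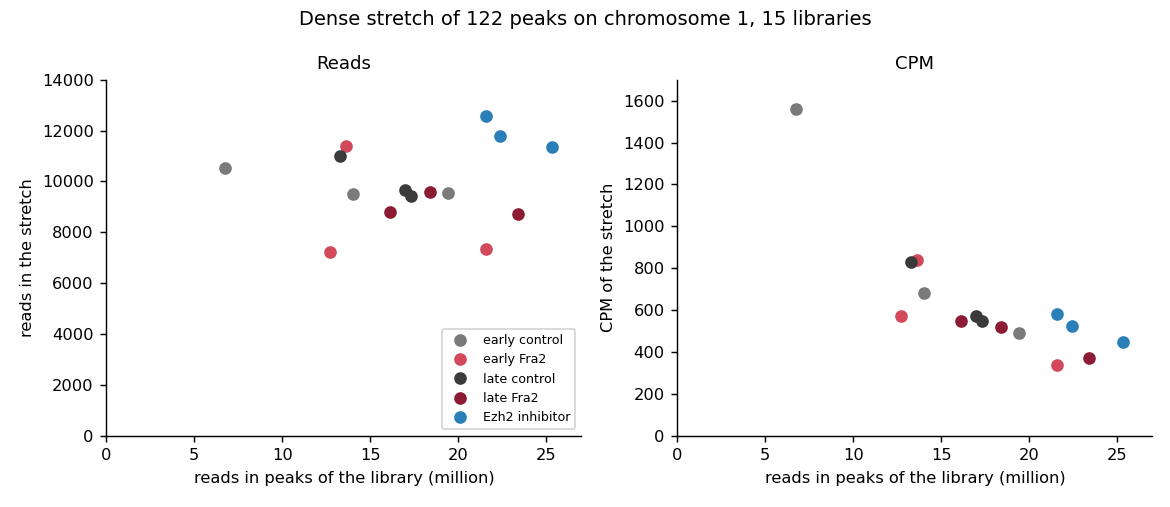
Reads (left, y axis) and CPM (right, y axis) summed over the 122 peaks of the chromosome 1 stretch against the reads in peaks of the library (x axis, M), 1 point per library, colours for the 5 groups. Reads stay between 7244 and 12569 at all depths, so the CPM is highest, at 1560, in the shallowest library.

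Gene groups were described by the share of their control-level peaks that are members, 1.44% over all. The lists were drawn up with earlier results of these data known, and no list was tested. The Wnt pathway, which directs cell fate through secreted ligands and TCF/LEF transcription factors, held 20 members among 628 control-level peaks (3.18%), at 14 of its 45 genes. Of the 20, 7 were called lower at both times, where 41.9% of all members were. Among the 853 tested peaks of the list, 35 were called lower and 89 higher early, and 41 lower and 41 higher late. The median over its control-level peaks was −0.03 early and −0.07 late, beside −0.08 at both times for all control-level peaks. The medians of the list thus lay near those of all control-level peaks, with its members a small set within it. No share of all tested peaks called higher was computed to set beside the higher calls of this or the other lists.

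Among ligands, Wnt11 had a member in its gene body (chromosome 7, 98851156 to 98851657) with 12.1, 11.4 and 8.26 CPM in early controls against 6.46, 4.56 and 6.49 CPM with Fra2, and 9.56, 8.39 and 10.5 CPM against 3.81, 3.63 and 2.95 CPM late. A member 10.4 kb from Wnt2 fitted −0.82 ± 0.38 early and −0.90 ± 0.36 late. Among receptors, Ror1 had 3 members, Ror2 had 2, and Lrp6, a co-receptor, had 2, of which the one 1.97 kb away fitted −0.75 ± 0.19 and −0.90 ± 0.18. Among the DNA-binding factors, Tcf7l1 had 2, Tcf7l2 had 2 and Tcf7 had 1. The stronger Tcf7l1 peak (chromosome 6, 72747122 to 72747623) measured 8.7, 7.98 and 4.9 CPM against 3.42, 3.52 and 3.1 CPM early and 5.53, 6.52 and 6.27 CPM against 2.61, 2.19 and 2.58 CPM late. Inhibitors and feedback genes were also present: Nkd1 (−1.23 ± 0.27 and −1.04 ± 0.30), Axin2, Znrf3, Wif1, Dkk2 and Dkk3, with 1 each.

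AP-1 family genes held 5 members among 247 control-level peaks (2.02%), at Fos, Jdp2, Atf7 and Maf. The Fos peak in the gene body (chromosome 12, 85475817 to 85476318) measured 7.09, 6.82 and 7.42 CPM against 3.85, 3.04 and 3.17 CPM early. Late controls were lower, at 3.14, 3.62 and 4.57 CPM, and late Fra2 libraries lower again, at 1.8, 2.35 and 1.53 CPM. Immediate-early genes, which respond to serum within minutes, held 10 members among 463 (2.16%), at Egr1 (4), Fos, Btg2, Nr4a1, Klf10, Ccn1 and Sgk1. The Egr1 member 1.21 kb from the gene (chromosome 18, 34865914 to 34866415) fitted −1.35 ± 0.19 early and −1.0 ± 0.23 late. The gene-body member of Egr1 measured 5.1, 3.41 and 4.48 CPM against 1.99, 2.08 and 2.38 CPM early and 3.21, 1.93 and 2.74 CPM against 1.54, 1.17 and 0.614 CPM late. Early, 35 of the 291 tested peaks of the AP-1 family were called lower and 16 higher, and 69 of the 548 of the immediate-early genes lower and 33 higher. Late, the counts were 19 lower and 13 higher for the AP-1 family and 36 lower and 25 higher for the immediate-early genes. Over all tested peaks 4.91% were called lower early and 3.54% late. Lower calls also outnumbered higher ones early in the Hox cluster (23 against 5) and the ribosomal protein reference (20 against 12).

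AP-1 target and wound genes held 3 members among 704 control-level peaks (0.426%), at Hmga2, Il1rl1 and Spp1. The Hmga2 peak, 33.7 kb from the gene of this chromatin architectural protein, measured 3.92, 4.06 and 2.94 CPM against 1.66, 2.08 and 1.87 CPM early. Chondrogenic and osteogenic genes held 9 among 310 (2.9%): 5 in Sox5, a cartilage transcription factor, and 1 each at Runx2, the bone master regulator, Cbfb, its partner, Sox6 and Matn1, a cartilage matrix protein. Of these 9, 2 were called lower at both times, both in Sox5. The Runx2, Cbfb and Sox6 peaks were called at neither time and the Matn1 peak early only. Adipogenic genes held 7 among 266 (2.63%), at Cebpa, Cebpb, Adipoq, Dlk1 and Prdm16, of which 2 were called lower at both times. The TGF-beta and BMP pathway held 14 among 709 (1.97%), with Ltbp1 at −1.09 ± 0.27 early and −1.05 ± 0.26 late. YAP-TEAD targets held 14 among 791 (1.77%), Polycomb-bound developmental regulators 11 among 696 (1.58%) and fibroblast identity genes 11 among 1018 (1.08%), with Nfix at −1.07 ± 0.32 and −1.28 ± 0.32.

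The myofibroblast list held 9 members among 760 control-level peaks (1.18%), of which 3 were called lower at both times. Palld fitted −1.04 ± 0.36 early and −1.0 ± 0.35 late, where it was not called. The p53 and senescence list held 2 among 357 (0.56%), including Cdkn1a, a cell-cycle inhibitor (−1.11 ± 0.28 early and −0.71 ± 0.28 late, the latter not called). The Hox cluster held 2 among 282 (0.709%). Chemokine and cytokine genes held 3 among 246 (1.22%), with a gene-end peak of Cx3cl1 with 7.19, 7.62 and 5.46 CPM against 4.42, 3.6 and 3.68 CPM early and 7.47, 7.42 and 7 CPM against 3.51, 3.68 and 4.3 CPM late. Of lists for other cell types, epithelial genes held 1 among 102 (0.98%, Krt5), neuronal genes 1 among 145 (0.69%, Rbfox3) and muscle genes 2 among 80 (2.5%, Des and Myod1). The Rbfox3 peak was called lower at both times, the Krt5 peak early only and the Myod1 peak at neither. Endothelial, macrophage, interferon response and ribosomal protein genes had 0.

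The Ezh2 inhibitor libraries did not enter the rule, although the early controls they are compared with did, where they had to be high. The members' median log2 fold change with the inhibitor was −0.27, with 1683 (80.4%) below 0, against −0.02 and 52.6% for control-level peaks. By edgeR, 59 members (2.82%) were called lower, where 0.341% of tested peaks were, and 0 higher, where 0.552% were. DESeq2 called 28 lower, where 0.339% of its tested peaks were, and 0 higher. At an unadjusted edgeR p under 0.05, 524 were lower and 12 higher. No share over all peaks was computed for unadjusted p, here or below, so such counts only describe the members. Without the chromosome 1 stretch edgeR called 52 of 2070 (2.51%) lower, and among members chosen without early control 3 it called 36. Set against late control, the inhibitor's median was −0.11, with 98 called lower and 31 higher, where 3.68% and 3.61% of all tested peaks were. The count of 59 became 6, 10 or 13 without inhibitor library 3, 1 or 2, and 24, 110 or 121 without early control 2, 1 or 3.

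The smallest p-values belonged to Tcf7l1, Ttc7 and Wnt11. The Tcf7l1 peak measured 2.9, 3.4 and 2.72 CPM with the inhibitor, below all 6 control libraries, a log2 fold change of −1.31 ± 0.19 (edgeR adjusted p = 7.8e-05). Ttc7, which helps to anchor a phosphatidylinositol kinase at the membrane, measured 22.6, 23.3 and 15 CPM in early controls and 10.8, 11 and 12.9 CPM with the inhibitor (chromosome 17, 87350643 to 87351144; −0.84 ± 0.15; edgeR adjusted p = 0.00393). Its early Fra2 libraries measured 14.1 CPM each. The Wnt11 peak measured 5.36, 6.22 and 6.18 CPM with the inhibitor (−0.87 ± 0.16; edgeR adjusted p = 0.00393), beside 5.83 ± 1.11 CPM with early Fra2 (SD, n = 3). These 3 stayed called in every alternative fit that gave them a value. Others of the 59 were a Tcf7 peak (−1.54 ± 0.37, with early control 3 at 7.28 CPM and the other early controls at 1.93 and 2.1 CPM), a Sox5 peak (−1.01 ± 0.23), 2 at Egr1 (−0.82 ± 0.17 and −0.59 ± 0.15), Ptprf (−0.93 ± 0.23) and Arap1 (−0.59 ± 0.15). Ptprf lost its call without either of early controls 1 and 2 or any inhibitor library and Arap1 lost it when any of 10 libraries was left out, 4 of them late Fra2 or late control and 1 early Fra2.

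Peaks at clustered zinc finger genes (2 in Zfp992 and 1 each at Zfp982 and Zfp600, on chromosome 4) were also among the 59, at −1.95 to −1.53. In these 4 peaks early control 3 stood far above the others, at 13.3 and 13.2 CPM in Zfp992, 9.1 CPM at Zfp982 and 7.28 CPM in Zfp600, against 1.18 to 3.99 CPM in early controls 1 and 2 and 0.835 to 2.02 CPM with the inhibitor. The genes also belong to a multigene family whose copies can share reads, and their values are uncertain. Others of the 59 showed the same height of early control 3, among them those in the chromosome 1 stretch. The peak near Tmem125 stood at 29 CPM there, against 3.7 and 8.2 CPM in early controls 1 and 2. In Sos2 the values were 9.52 CPM against 1.88 and 2.68 CPM. At Tcf7l1, Ttc7 and Wnt11 early control 3 was instead the lowest of the early controls. Of the 59, 34 were also called lower in the fit without early control 3, which called 121 members. Most members were not called with the inhibitor, and at 1453 (69.4%) the inhibitor level lay between early Fra2 and early control, against 24% of control-level peaks. Members were chosen for a wide gap between these groups, so more values fall between them by construction. Compared directly, early Fra2 was below the inhibitor at 722 members (34.5%) by edgeR, where 5.2% of tested peaks were, and above it at 0, where 9.02% were, with 6 above at an unadjusted p under 0.05 and 0 by DESeq2. The early Fra2 libraries had to be low for a peak to be a member, so this difference is partly set by the rule. For Jarid2 it was −1.46 ± 0.21 and for Celf2 −1.37 ± 0.19, whereas for Tcf7l1 it was 0.16 ± 0.20 and for Wnt11 −0.01 ± 0.17, with edgeR adjusted p = 0.659 and 0.987, which does not show that the treatments act alike there.

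Time was examined in the controls and in the Fra2 effect. Late controls were below early controls at 1511 members (72.2%), against 48.3% of control-level peaks, with a median of −0.16 against 0.01 for control-level peaks. Both control groups entered the rule, where each had to be high against its own Fra2 group. These values are therefore not independent of the choice, and how far the choice shaped them was not tested. By edgeR 46 members were called lower in late control, where 1.24% of tested peaks were, and 1 higher, where 2.04% were. Among the 46 were 2 peaks of Egr1 (−1.70 ± 0.19, edgeR adjusted p = 1e-07, and −0.64 ± 0.15), and peaks of Fos (−0.90 ± 0.19), Btg2 (−0.94 ± 0.24), Jarid2 (−0.70 ± 0.20) and Nkd1 (−0.95 ± 0.27). The one higher peak was in Relb, an NF-kappaB subunit (0.62 ± 0.18, edgeR adjusted p = 0.0443), where DESeq2 called 0. At an unadjusted edgeR p under 0.05, 254 members were lower and 18 higher, without a share over all peaks to set beside them.

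The difference of the 2 Fra2 effects had a median of 0.00 over members (quartiles −0.15 and 0.17). By edgeR 0 members differed between times, where 0.0935% of tested peaks did, with 31 at an unadjusted p under 0.05 and 0 by DESeq2. The rule bounds both effects from above, which limits how far they can differ, so a small count was built in. Fitted effects were larger late at Wnt11 (−0.88 and −1.44; difference −0.56 ± 0.24, edgeR adjusted p = 0.433) and larger early at Cdkn1a (−1.11 and −0.71; 0.39 ± 0.40, edgeR adjusted p = 0.81), and neither difference passed the test.

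The counts of calls and of members depend on scaling. When the TMM factors came from gene-end peaks alone, the median of all peaks moved from −0.03 to 0.17 early and from −0.01 to 0.22 late. The members' medians moved with it, to −0.62 and −0.57, and all 2093 stayed below 0. The gap between the members' median and that of all peaks was −0.79 at both times, beside −0.78 early and −0.79 late with the usual factors. A change of factors shifts all peaks of a comparison by nearly the same amount, so this gap could hardly move. The members also had to be low in these comparisons, so neither result is a test of them. The same rule on CPM scaled by the gene-end factors kept 511 peaks, all of them members. With these factors 253 members were called lower at both times.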

How the data were processed

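Omni-ATAC-seq, which reads out open chromatin by transposase insertion, was run on 15 libraries, 3 in each of 5 groups. The authors deposited raw read counts per consensus peak for all libraries in 1 table (206367 peaks of 502 bases but 1), and a list of peaks called in each library, giving each peak its fold enrichment as a ratio to background and its −log10 p and q. The peak caller was MACS2 and the build mm10, per the submitters' processing notes; for the aligner, the counter, any filters and the making of the consensus set, the step is not given in the sources used. The authors' −log10 p values were at least 2.04 in every list, and these lists were used only to count calls that overlap members by 1 base or more.

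Group CPM for the rule was the summed counts of a group over its summed library totals. Fold changes and tests came from the edgeR 4.0.16 quasi-likelihood F-test (R 4.3.3, limma 3.58.1) on the deposited counts, with TMM factors, filterByExpr (206349 peaks tested), 1 fit of all 15 libraries and Benjamini-Hochberg adjustment over all tested peaks at 0.05. Log2 fold changes are edgeR's, and CPM per library are TMM-scaled. The fit was tested on simulated counts. Tables were handled with Python 3.11.15, pandas 2.3.3, numpy 2.4.6 and scipy 1.17.1 and plotted with matplotlib 3.10.9.

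Peaks were named by the nearest RefSeq protein-coding gene (GRCm38.p6) within 100 kb of the peak's centre, a label of position and not of regulation. A gene end is either end of a gene interval, within 1 kb, since strand was not used. The rule and the gene lists were chosen with earlier results of these data known. Peaks without a gene within 100 kb and those with a predicted gene symbol were left out of the rankings of named peaks. Named peaks followed a written rule: those with the most negative weaker fold change, the highest control levels, the strongest of each gene list, the highest promoter members, the smallest p with the inhibitor, the genes with most members, and those beside the ratio limits; others are named because a sentence counts or compares them, and those were chosen after their values were seen. Alternatives were DESeq2 1.42.0, TMM from gene-end peaks, no filter, a replicate block, other limits of the rule and each library left out. 1 gene list and its count are not reported here.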

Additional observations from a re-analysis of the deposited data

How the results depend on the processing

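Depth limits the low peaks, and scaling, single libraries and the limits of the rule each move some counts by over 1.5 times. The 877 members called lower in both Fra2 comparisons became 253 with TMM from gene-end peaks and 494 to 980 with a library left out, while DESeq2 gave 728, no filter 876 and the set without the chromosome 1 stretch 875. The 59 lower with the inhibitor became 28 by DESeq2, 46 with gene-end TMM, 59 without a filter, 52 without the stretch, 98 against late control (25 shared) and 36 for members chosen without early control 3, and 6 to 121 with a library left out. The 1 member higher in late control became 0 by DESeq2, 4 with gene-end TMM and 0 to 4 with a library left out. The difference between the Fra2 effects called 0 in every fit. The rule gave 511 peaks on gene-end scaled CPM, 133 at a ratio of 0.5, 6756 at 0.75, 472 at a control level of 4 CPM, 2619 on TMM-scaled CPM, 3027 at 1 CPM, 2460 on means of libraries, and 1717 to 2737 with a library left out. The gene-end share of 9.99% became 5.92% within 0.5 kb, 15.8% within 2 kb, 3.76% at a ratio of 0.5 and 19.9% at 4 CPM, and was 9.9% without early control 3. Same-numbered libraries share only a number, with correlations of deviations of 0.27, −0.01 and 0.24 for early control and Fra2 and −0.08, −0.02 and −0.01 for late; with the replicate block 883 members were called lower in both, 62 lower with the inhibitor, 2 higher in late control and 0 for the difference. Of the fitted values of 42 named peaks under these alternatives, 0 turned direction while called. A further 13 changed sign while uncalled in both fits. The named peaks were picked from these same data, so few turns could be found. With gene-end TMM 10 early Fra2, 7 late Fra2 and 2 inhibitor calls were lost, and 1 inhibitor call was gained. Over all fits with a library left out, 51 early, 55 late and 22 inhibitor calls were lost, and 7, 16 and 8 were gained. Alternatives without the stretch, against late control and without early control 3 for the choice of members were chosen after seeing the data.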
